A study of Mus musculus with 24 samples.

Results

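The comparison set 6 mouse brain tumours infused with the immunotoxin D2C7-IT against 6 infused without it, all taken on the day the pumps were removed (day 0). These 12 tumours, of 24 in the series, were chosen by their treatment and day labels alone, and all genes were examined.

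D2C7-IT is a fusion of an antibody fragment that recognises the epidermal growth factor receptor (EGFR) and its truncated variant III with a portion of Pseudomonas exotoxin A. After uptake into a cell the toxin portion modifies elongation factor 2, the product of Eef2, and so stops the ribosome. Damaged or dying cells are known to release signals that switch on NF-kB and interferon programmes in neighbouring glia, vessels and myeloid cells, and these programmes recruit neutrophils and monocytes through chemokines and endothelial adhesion molecules.

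Every tumour grew from CT-vIII cells, a CT-2A mouse glioma line transduced with mouse EGFR variant III and firefly luciferase and injected into the right hemisphere. An osmotic pump infused the treatment into the brain, starting on day 6 after implantation, over 72 h at 0.5 µl/h, and was removed on day 9. The tumours without toxin were 3 vehicle tumours, infused with saline that held 2% mouse serum albumin plus an IgG2a control antibody from rat (100 µg), and 3 tumours that received the anti-CD40 antibody aCD40 (clone FGK4.5/FGK45). The toxin tumours were 3 that received 0.2 µg of D2C7-IT and 3 that received D2C7-IT+aCD40. The labels give aCD40 as a range of 10 to 300 µg, without saying which tumour had which dose. All 4 groups therefore shared the implanted line, the surgery and the pump, and the antibody was present in 3 of the 6 tumours of each arm. Each arm mean averages over antibody and no antibody, and the antibody was a term of the model. Polyadenylated RNA was measured in unsorted frozen tissue, so fewer cells of a type and less RNA per cell cannot be told apart. The p-values measure the spread between these tumours.

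Counted reads per library, in units of 1e6, ran from 24.7 to 47.8 over the 12 libraries, with a median of 38.7 in the toxin arm and 38.1 in the other. Levels are given in counts per 1e6 counted reads of the library (CPM). Fold changes are log2, toxin over no toxin, ± an SE computed as the absolute fold change over the square root of edgeR's F statistic. The main effect fit had 9 residual degrees of freedom, and the fit of 4 group means used for each antibody state had 8. Neuron transcripts were abundant in every library, whose 22 neuron markers summed to between 9737 and 15110 CPM, so each sample held brain tissue. The share of tumour tissue in each sample was not tested. Egfr, the target of the toxin (chromosome 11, 16752203 to 16918158, GRCm38), ranged from 14.7 to 47.0 CPM in the toxin arm and from 14.6 to 49.6 CPM in the other, and its reads cannot be split between the mouse gene and the transgene. The Egfr levels were therefore no check on which tumours received toxin.

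A pair of libraries stood apart from their arms in inflammatory and interferon transcripts. D2C7-IT+aCD40 replicate 1 had inflammatory and interferon transcripts near the levels of the tumours without toxin, and aCD40 replicate 3 had the highest levels of many of them among those tumours. In the type I interferon-stimulated list the former averaged 3.78 log2 CPM against 5.06 to 5.35 in the other 5 toxin libraries, and the latter averaged 5.12 against 2.20 to 4.19 in the other 5 libraries without toxin. No label sets these tumours apart. Many list medians and counts moved when 1 of these libraries was left out, and the larger of these moves are given beside the lists. In most inflammatory lists these moves raised the median, whereas leaving out vehicle replicate 3 lowered it in several. The type I interferon median was then 0.686 against 0.902 with all libraries, and the acute phase median 0.823 against 1.18. The monocyte marker median was 0.259 against 0.483, and that of CC and other CXC chemokines 0.364 against 0.59. For T and NK cell markers it was -0.31 against -0.09.

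No gene passed an adjusted p of 0.05 for the toxin main effect in edgeR's quasi-likelihood test (0 of 20735 genes tested, 0% called, smallest adjusted p 0.242). At an unadjusted p under 0.05 stood 1232 genes (5.94%), of which 763 were higher with toxin (3.68% of all genes) and 469 lower (2.26%). The call depended on the tool: limma voom called 0 genes as well, whereas DESeq2 called 103 (0.498% of 20684), 78 of them higher (0.377%) and 25 lower (0.121%). Below, a DESeq2 adjusted p is quoted beside single genes only where DESeq2 called them, and not beside all of those. Called genes given below with the edgeR value alone include Cxcl2 (DESeq2 adjusted p 6.88e-08), Ccl7 (5.62e-05), Tnf (0.000173) and Sele (0.000211). Ccl2 (0.00102), Csf3 (0.00134), Tnfaip3 (0.00486) and Cd40 (0.0143) are further ones. Many genes named below were not called by DESeq2, among them Sod2 (DESeq2 adjusted p 0.12), Ifit1 (0.133), S100a9 (0.14), Isg15 (0.215) and P2ry12 (0.402). For Steap4 and Ptx3 it gave no adjusted p. Over all genes the median log2 fold change was -0.012 and 9783 of the 20735 fold changes were above 0 (47.2%), a balance that the TMM scaling itself sets, so a shift of all genes together cannot be read from it. Log2 fold changes above 1 numbered 381 (1.84%) and those below -1 numbered 112 (0.54%), so large differences lay mostly on the higher side. Without D2C7-IT+aCD40 replicate 1 the genes at an unadjusted p under 0.05 numbered 2138 (10.1%), and without aCD40 replicate 3 they numbered 2291 (10.8%).

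A stricter description asked in which genes all 6 toxin libraries lay on one side of all 6 others. That held for 41 genes on the higher side (0.198% of genes tested) and 12 on the lower side (0.0579%), a count added after the data were seen. Among the higher genes were the neutrophil-attracting chemokines Cxcl1 and Cxcl2, the protease Mmp3, the endothelial selectin Sele and the growth factors Artn and Nrg1. The lower ones included the chemokine Cxcl14, the alanine aminotransferase Gpt2, the Wnt receptor Fzd4 and the Wnt antagonist Dkk2. Within each antibody state separately, 3 toxin libraries against 3 without, 80 genes were higher without overlap in both states (0.386%) and 38 lower (0.183%).

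Promoters of 7 genes named in the results are shown because each holds a motif of the NF-kB, interferon or AP-1 pathway, for which they were picked. They are the 150 bases before the annotated start, from RefSeq (GRCm38.p6), with the motif in capitals, matched on both strands. For the first 4 the motif is the NF-kB consensus, for Isg15 and Ifit1 the interferon-stimulated response element (GAAA, any pair of bases, GAAA) or its reverse complement, and for Mmp3 the AP-1 element TGANTCA. In Isg15 the capitals span overlapping copies.

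Cxcl1 chr5:90891095-90891244 (+ strand): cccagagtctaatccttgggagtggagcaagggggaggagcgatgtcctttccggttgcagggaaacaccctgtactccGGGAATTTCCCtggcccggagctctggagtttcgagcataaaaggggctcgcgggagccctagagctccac
Cxcl2 chr5:90903749-90903898 (+ strand): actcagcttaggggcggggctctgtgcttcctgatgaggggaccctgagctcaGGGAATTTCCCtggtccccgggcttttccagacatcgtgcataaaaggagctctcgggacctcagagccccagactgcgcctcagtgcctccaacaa
Cxcl3 chr5:90785951-90786100 (+ strand): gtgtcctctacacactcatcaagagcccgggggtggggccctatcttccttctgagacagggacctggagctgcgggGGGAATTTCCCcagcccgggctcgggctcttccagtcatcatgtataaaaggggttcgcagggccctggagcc
Il6 chr5:30012964-30013113 (+ strand): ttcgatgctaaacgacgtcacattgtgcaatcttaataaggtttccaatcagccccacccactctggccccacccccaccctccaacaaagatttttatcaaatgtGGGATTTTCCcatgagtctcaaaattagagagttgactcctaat
Isg15 chr4:156200819-156200968 (- strand): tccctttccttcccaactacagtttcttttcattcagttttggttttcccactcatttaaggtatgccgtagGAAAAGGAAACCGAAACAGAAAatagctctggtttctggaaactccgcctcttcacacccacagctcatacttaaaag
Ifit1 chr19:34640739-34640888 (+ strand): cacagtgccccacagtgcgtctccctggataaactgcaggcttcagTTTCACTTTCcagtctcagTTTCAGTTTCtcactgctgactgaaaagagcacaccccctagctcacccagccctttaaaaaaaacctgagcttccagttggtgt
Mmp3 chr9:7445672-7445821 (+ strand): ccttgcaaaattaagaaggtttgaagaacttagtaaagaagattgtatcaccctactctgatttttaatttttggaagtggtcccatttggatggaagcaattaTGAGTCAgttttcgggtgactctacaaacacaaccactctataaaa

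The 3 ELR chemokine genes Cxcl1, Cxcl2 and Cxcl3 lie near one another on chromosome 5. They carried the same run of letters in capitals, beginning 71, 97 and 73 bases before the start. The NF-kB consensus was found in 4 of the 5 promoters available for the ELR list, which are those of Cxcl1, Cxcl2, Cxcl3 and Csf3r, in 9 of 18 for the NF-kB list, in 2 of 13 for the CC and other CXC chemokines (Ccl9 and Cxcl10) and in 2 of 16 for the cytokines (Il6 and Ltb), against 5.29% of 27025 genes. The response element was found in 8 of 20 promoters of the type I interferon list and in 9 of 16 of the interferon-gamma list, against 1.85% of genes, and the AP-1 element in 4 of 14 of the protease list, against 4.96%. Overlap between motifs was not removed, and a match describes letters in this window only.

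**Figure D1:**
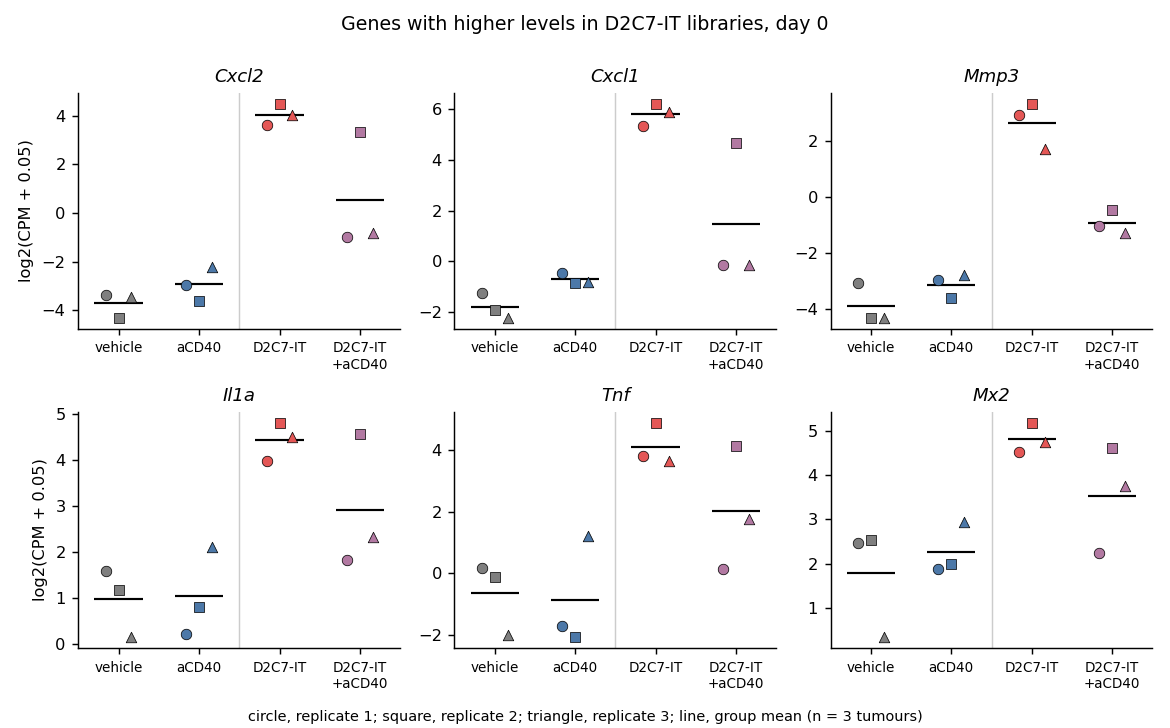
Levels of 6 genes in each of the 12 day 0 libraries, as log2(CPM + 0.05), by group, with the group mean as a line (n = 3 tumours). In Cxcl1, Cxcl2 and Mmp3 all 6 D2C7-IT libraries lie above all 6 others, while in Il1a, Tnf and Mx2 D2C7-IT+aCD40 replicate 1 lies within the range without toxin.

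Chemokines that bind Cxcr2 and draw neutrophils had the highest median fold change of the lists examined. Of the 13 genes in the list of ELR chemokines, their receptors and granulocyte growth factors, 8 were abundant enough to test and all 8 had a higher fold change, with a median log2 fold change of 2.82 against -0.012 over all genes. At an unadjusted p under 0.05 stood 5 of the 8, beside 3.68% of all genes on that side. At least Cxcl2 and Csf3 passed the abundance filter through toxin libraries alone, so the filter itself favoured a higher fold change in them. The count of 8 and the list median lean to the higher side for that reason. Cxcl2, an ELR chemokine that acts on neutrophils (ENSMUSG00000058427, chromosome 5, 90903871 to 90905938), held 0 to 0.166 CPM in the tumours without toxin, with a median of 0.0433, and 0.456 to 22.5 CPM in the toxin tumours, with a median of 11.1. All 6 toxin libraries were above all 6 others, but they fell into a high set of 4, at 10.1 CPM or more, and a low pair made up of D2C7-IT+aCD40 replicates 1 and 3. The log2 fold change was 6.88 ± 1.09 with an edgeR adjusted p of 0.326. Since vehicle tumours held 3 reads of Cxcl2 in all, the ratio of D2C7-IT to vehicle counts is known only widely, at 612 with a 95% interval of 209 to 2968 from counting error alone.

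Cxcl1, a chemokine of the same family (ENSMUSG00000029380, chromosome 5, 90891241 to 90893115), gave the same order of libraries at higher levels. Vehicle tumours held 0.370, 0.215 and 0.162 CPM, aCD40 tumours 0.666, 0.503 and 0.521, D2C7-IT tumours 40.5, 74.0 and 58.5, and D2C7-IT+aCD40 tumours 0.861, 25.1 and 0.852. The arms did not overlap, yet the 2 lowest combination tumours stood close to the highest aCD40 tumour. Its log2 fold change was 5.73 ± 1.10 (edgeR adjusted p 0.379, DESeq2 adjusted p 1.14e-06). Csf3, the granulocyte growth factor G-CSF, ranged from 0.0462 to 0.202 CPM without toxin and from 0.0759 to 3.15 CPM with it, 4 of the 6 toxin libraries lying above the whole other arm (log2 fold change 3.59 ± 0.77, edgeR adjusted p 0.462).

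Monocyte chemokines followed, though their arms overlapped through a single toxin tumour. In the list of CC and other CXC chemokines, 13 of 20 members tested had a fold change above 0, 7 stood higher and 1 lower at an unadjusted p under 0.05, and the median log2 fold change was 0.59. Without aCD40 replicate 3 the median was 0.971 and 12 stood higher at that p. Ccl2, which recruits monocytes through Ccr2, held 0.243 to 8.40 CPM without toxin (median 2.05) and 5.34 to 122 CPM with it (median 66.5). In 5 of 6 toxin libraries Ccl2 was above the whole other arm, the exception being D2C7-IT+aCD40 replicate 1. The log2 fold change of Ccl2 was 3.95 ± 0.90 and that of its neighbour Ccl7, another monocyte chemokine, 3.71 ± 0.83, with an edgeR adjusted p of 0.462 for both. The interferon-inducible Cxcr3 ligand Cxcl10 held 1.58 to 54.2 CPM without toxin and 20.9 to 143 CPM with it. Cxcl11, a further Cxcr3 ligand, stood at a log2 fold change of 2.72 ± 0.65 (edgeR adjusted p 0.504).

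Cxcl14 went the other way. This chemokine is made constitutively by many tissues (ENSMUSG00000021508, chromosome 13, 56288643 to 56296551), and it held 100, 110 and 103 CPM in vehicle tumours and 116, 89.7 and 92.0 CPM in aCD40 tumours. With toxin it held 76.9, 71.7 and 82.1 CPM without antibody and 81.1, 75.0 and 79.3 CPM with it. All 6 toxin libraries lay below all 6 others, including D2C7-IT+aCD40 replicate 1. The log2 fold change was -0.43 ± 0.09, with an adjusted p of 0.449 in edgeR and 0.0063 in DESeq2.

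NF-kB targets were higher as a list in the toxin arm. These genes encode subunits, inhibitors and induced products of the NF-kB transcription factors, and all 23 of 23 had a fold change above 0, where 47.2% of all genes did. The median log2 fold change was 0.955 and 18 of the 23 stood at an unadjusted p under 0.05, all higher. Without D2C7-IT+aCD40 replicate 1 the median was 1.11 with 20 of 23 at that p, and without aCD40 replicate 3 it was 1.26 with 21. The background share of higher genes at that p was 5.92% and 7.22% in these 2 fits. Tnfaip3, the ubiquitin-editing enzyme A20 that restrains NF-kB, held 6.55 to 19.7 CPM without toxin (median 9.22) and 10.7 to 125 CPM with it (median 65.8). D2C7-IT+aCD40 replicates 1 and 3 stood within the range without toxin and the other 4 toxin libraries above it (log2 fold change 2.23 ± 0.57, edgeR adjusted p 0.556). Tnfaip2, another TNF- and NF-kB-induced gene, gave 3.24 ± 0.90 in the same test with an adjusted p of 0.576, and 4 of 6 toxin libraries above all others. Sod2, the mitochondrial superoxide dismutase and an NF-kB target, differed less in fold but from a high level, at 115 to 133 CPM without toxin and 121 to 224 CPM with it (log2 fold change 0.40 ± 0.11). In Bcl3, a nuclear IkB protein, 4 of 6 toxin libraries lay above the other arm, at a log2 fold change of 2.23 ± 0.64.

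**Figure D2:**
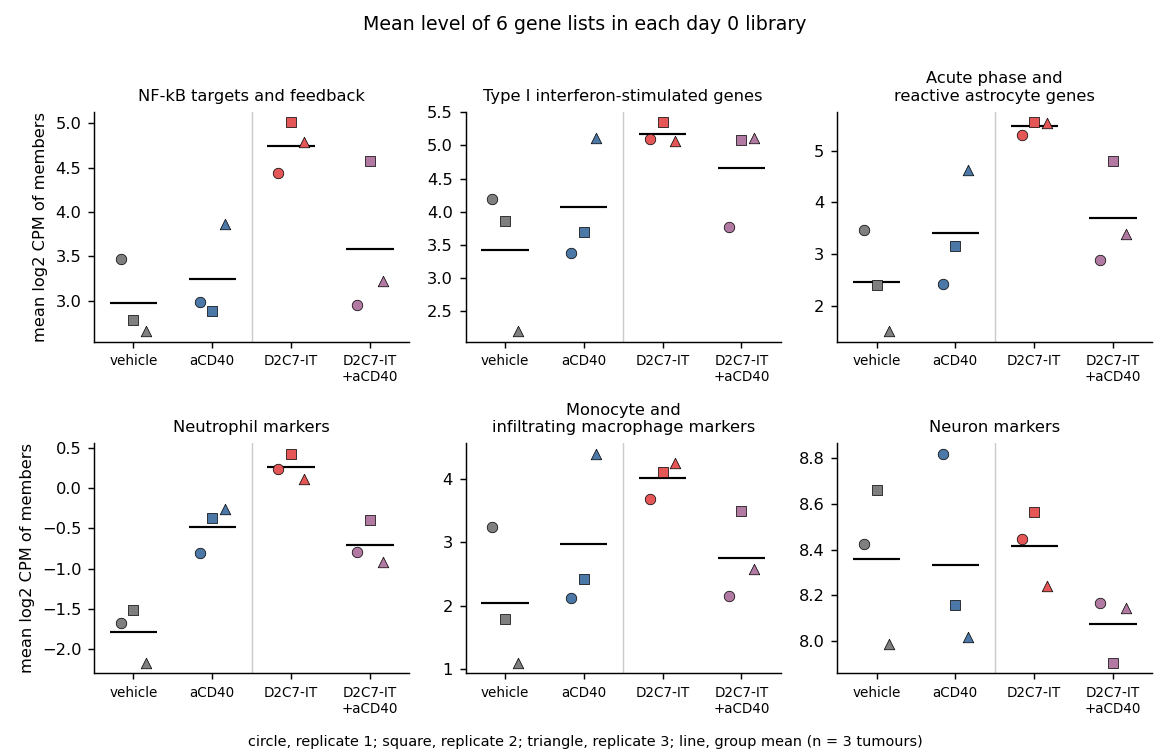
Mean log2 CPM over the members of 6 gene lists in each of the 12 day 0 libraries, by group, with the group mean as a line (n = 3 tumours). The 3 D2C7-IT libraries lie high in the NF-kB, interferon, acute phase and neutrophil lists, D2C7-IT+aCD40 replicate 1 lies within the range without toxin in these 4, all 3 combination libraries do so in the neutrophil list, and the neuron list shows no such order.

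Cytokines of the IL-1, IL-6 and TNF families had fold changes above 0 in 18 of 19 members, with a median of 0.83 and 7 at an unadjusted p under 0.05 (median 1.11 and 11 without aCD40 replicate 3). Il1a, an alarmin released by injured cells, held 1.05 to 4.24 CPM without toxin (median 1.95) and 3.49 to 28.1 CPM with it (median 19.3), and 5 of 6 toxin libraries were above the whole other arm. Its log2 fold change was 2.78 ± 0.54 (edgeR adjusted p 0.379, DESeq2 5.41e-05). Tnf ranged from 0.189 to 2.27 CPM without toxin and from 1.06 to 29.4 CPM with it, giving 3.79 ± 0.84 with an edgeR adjusted p of 0.462. Il6, which signals through Stat3, was close to the detection limit in all 6 libraries without toxin, at 0 to 0.179 CPM, and reached 0.152 to 6.15 CPM in the toxin arm. The gap in Il6 again left D2C7-IT+aCD40 replicate 1, at 0.152 CPM, inside the range without toxin. Among the receptors and STAT3 targets of these cytokines the pattern was narrower, with 14 of 18 fold changes above 0, a median of 0.34, and 6 higher and 1 lower at an unadjusted p under 0.05. Without aCD40 replicate 3 that median was 0.518, with 9 higher. By antibody state it was 1.023 without antibody and -0.047 with it. Stat3 itself stood at 66.6 to 132 CPM without toxin and 76.4 to 250 CPM with it (log2 fold change 0.90 ± 0.23, edgeR adjusted p 0.556). The lower member was Hif3a, a hypoxia-inducible factor subunit, at -0.63 ± 0.19.

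Type I interferon-stimulated genes, whose products block viral replication, had fold changes above 0 in 28 of 28 members, with a median of 0.902. Of the 28, 16 stood at an unadjusted p under 0.05, 23 without D2C7-IT+aCD40 replicate 1 (median 1.13) and 28 without aCD40 replicate 3 (median 1.37). Its median was above 0 in both antibody states, at 1.475 without antibody and 0.475 with it, and 27 of 28 members were above 0 in both. Over all genes 4963 of 20735 were. Mx2, an interferon-induced GTPase, held 5.50, 5.68 and 1.21 CPM in vehicle, 3.61, 3.90 and 7.60 in aCD40, 22.7, 36.0 and 26.8 in D2C7-IT, and 4.63, 24.3 and 13.5 in D2C7-IT+aCD40 tumours. The arms of Mx2 overlapped only through the combination replicate 1 (log2 fold change 2.10 ± 0.47, edgeR adjusted p 0.462, DESeq2 0.00139). Ifit1, which binds foreign RNA and carries the response element shown above, held 6.15 to 50.6 CPM without toxin and 15.7 to 87.5 with it, at 1.41 ± 0.46 with an edgeR adjusted p of 0.665. Isg15, the ubiquitin-like interferon product, stood at 1.34 ± 0.48, and Irf9, the DNA-binding subunit of the interferon response complex, at 0.80 ± 0.23. Because Ifit and Oas genes have near-identical copies, reads may have been split between members of these families.

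Interferon-gamma-induced and antigen presentation genes had lower medians with all 12 libraries, and these moved with aCD40 replicate 3. Of 23 interferon-gamma-induced genes 18 had a fold change above 0, with a median of 0.28 and 3 at an unadjusted p under 0.05. Without aCD40 replicate 3 the median was 0.74 and 9 stood at that p. Gbp5, a guanylate-binding protein of the inflammasome pathway, ranged from 4.49 to 79.8 CPM without toxin and 24.9 to 158 CPM with it, and the upper end without toxin was aCD40 replicate 3. Of the MHC class I presentation genes 19 of 20 had fold changes above 0 with a median of 0.245, but none was higher at an unadjusted p under 0.05 in edgeR and 1 was lower. For MHC class II presentation the median was -0.042, with 6 of 13 above 0 and 0 of 13 at that p in either direction. Both class medians moved with aCD40 replicate 3, to 0.54 for class I (8 higher at that p) and to 0.49 for class II (4 higher) when it was left out, and the class II median was 0.175 without D2C7-IT+aCD40 replicate 1, and DESeq2 called 0 members of either list. Cd40, the receptor of the antibody, held 0.891 to 5.02 CPM without toxin (median 1.38) and 1.80 to 11.2 CPM with it (median 7.83). The highest tumour without toxin was aCD40 replicate 3, and 4 toxin libraries lay above it (log2 fold change 1.99 ± 0.52, edgeR adjusted p 0.556). Icosl, a costimulatory ligand, stood at 1.42 ± 0.37, and Lag3, an inhibitory receptor of T cells also made by neurons, at -0.45 ± 0.10 with 5 of 6 toxin libraries below all others.

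Genes of tissue injury and vessel activation were among the largest differences. In the acute phase and reactive astrocyte list 16 of 18 members tested were above 0, with a median of 1.18, and 6 were higher at an unadjusted p under 0.05. Without D2C7-IT+aCD40 replicate 1 that number was 10 and the median 1.53, and without aCD40 replicate 3 they were 13 and 1.86. Steap4, a metalloreductase induced in inflammation, held 0.486 to 9.90 CPM without toxin and 2.84 to 140 CPM with it. The level was 131, 140 and 135 CPM in the D2C7-IT tumours and 2.84, 54.8 and 6.77 in D2C7-IT+aCD40, so 4 of 6 toxin libraries lay above the whole other arm (log2 fold change 4.58 ± 1.24, edgeR adjusted p 0.569). Ptx3, a secreted pattern recognition protein, gave 4.45 ± 1.14 with 4 of 6 libraries above the rest. Timp1, an inhibitor of matrix proteases, held 1.09 to 11.2 CPM without toxin and 3.92 to 56.7 with it.

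Mmp3, the matrix protease stromelysin-1 (ENSMUSG00000043613, chromosome 9, 7445822 to 7455975), was nearly absent without toxin. Vehicle tumours held 0.0693, 0 and 0 CPM, aCD40 tumours 0.0768, 0.0314 and 0.0947, D2C7-IT tumours 7.43, 9.89 and 3.18, and D2C7-IT+aCD40 tumours 0.430, 0.679 and 0.359. All 6 toxin libraries exceeded all 6 others, and here the 3 combination libraries were alike (log2 fold change 5.33 ± 0.90, edgeR adjusted p 0.341, DESeq2 1.31e-06). With 3 vehicle reads in all, the ratio of D2C7-IT to vehicle counts was 255 with a 95% counting interval of 86.9 to 1238. In the whole protease list 17 of 22 members were above 0, with a median of 0.465 and 5 at an unadjusted p under 0.05, among them the aggrecan-cleaving Adamts1 (0.85 ± 0.27) and Adamts5 (1.04 ± 0.35). Without aCD40 replicate 3 the protease median was 0.794 and 11 stood at that p. By antibody state it was 1.156 without antibody, with 18 of 22 above 0, and -0.093 with it, with 7 above 0.

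Adhesion molecules of activated endothelium differed in the same direction on average over both antibody states. Sele, or E-selectin (ENSMUSG00000026582, chromosome 1, 164048234 to 164057677), held 0 to 0.896 CPM without toxin and 1.11 to 9.65 CPM with it, and the arms did not overlap (log2 fold change 3.65 ± 0.82, edgeR adjusted p 0.462). Selp, or P-selectin, held 0.393, 0.189 and 0 CPM in vehicle, 2.05, 1.95 and 1.54 in aCD40, 18.4, 16.3 and 8.43 in D2C7-IT, and 2.03, 6.90 and 2.11 in D2C7-IT+aCD40 tumours. The antibody alone thus went with higher Selp than vehicle, and the combination replicate 1 stood just below the highest aCD40 tumour. Icam1, a ligand of leukocyte integrins, had a log2 fold change of 2.72 ± 0.67, with 5 of 6 toxin libraries above all others. Over the 20 adhesion molecules 16 were above 0 and the median was 0.255. The median was 0.626 without antibody, with 18 above 0, and -0.041 with it, with 8 above 0. In the pooled comparison 5 were higher at an unadjusted p under 0.05, or 9 without aCD40 replicate 3. General endothelial markers differed less on average: their median over 20 members was 0.092, with 2 higher and 2 lower at that p. It was 0.15 with 4 higher and 1 lower without D2C7-IT+aCD40 replicate 1, and 0.102 with 1 higher and 2 lower without aCD40 replicate 3. By antibody state the median was 0.322 without antibody, with 17 of 20 above 0, and -0.151 with it, with 2 above 0. For the difference 9 of 20 stood at an unadjusted p under 0.05, beside 3.68% of all genes. Kdr, a receptor of vascular growth factors, stood at 0.28 ± 0.09, and was named for its small p. Read totals, not scaled for depth, were lower with toxin in Mfsd2a (4836 against 5118) and Slco1a4 (10194 against 10500).

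Markers of the cells that could hold these transcripts were read beside them. Of 18 neutrophil markers 10 were tested, with a median of 1.19 and 5 higher at an unadjusted p under 0.05, and their summed level ran from 12.5 to 36.9 CPM with toxin and from 6.03 to 16.3 CPM without. Among them were the alarmin subunit S100a9 (1.60 ± 0.55), the decoy receptor Il1r2 (1.23 ± 0.38) and the amplifying receptor Trem1 (2.55 ± 0.83). The granule proteins Ltf (-0.62 ± 0.68) and Ngp (-0.20 ± 0.55) were the 2 members with a fold change below 0, named after their values were seen. The neutrophil median was 2.19 without antibody and 0.06 with it. No marker of any cell type list was at 0 in all 12 libraries, but Ly6g, the defining surface marker of neutrophils, had 4 reads over the toxin arm and 1 over the other. Monocyte and infiltrating macrophage markers summed to 297 to 1156 CPM with toxin and 177 to 1313 CPM without, with 18 of 22 members above 0, a median of 0.48 and 2 at that p. Without aCD40 replicate 3 the monocyte median was 1.23 and 13 of 22 stood at that p. Ifitm6, found in monocytes, stood at 1.09 ± 0.29 and Plac8, another monocyte transcript, at 1.26 ± 0.51, both named for their small p. Read totals, not scaled for depth, were lower with toxin in Gpnmb (6523 against 9737) and Vcan (6326 against 7675). By antibody state the monocyte median was 1.61 without antibody, with 21 of 22 above 0, and -0.47 with it, with 5 above 0. The part of these cell types in the chemokine, NF-kB and interferon lists was not tested.

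Resident and lymphoid cell markers had medians near or below 0 with all 12 libraries, and some turned sign when 1 library was left out. Microglia markers had a median of -0.002 over 20 members, T and NK cell markers -0.09 over 22 with 0 at an unadjusted p under 0.05, and neuron markers -0.105 over 22 with 0 at that p. The microglia median was 0.104 without D2C7-IT+aCD40 replicate 1 and 0.182 without aCD40 replicate 3, and the T and NK cell median 0.163 and 0.488. By antibody state the T and NK cell median was 0.637 without antibody, with 19 of 22 above 0, and -0.769 with it, with 2 above 0. The neuron median was -0.178 without either library, with 1 lower at that p without aCD40 replicate 3. Summed neuron levels were 9737 to 15110 CPM with toxin and 11650 to 14790 CPM without, so they overlapped throughout. Of the 20 microglia markers 10 had a fold change above 0. Gpr84, a receptor of activated microglia, held 1.38 to 10.8 CPM without toxin and 4.13 to 20.6 CPM with it. P2ry12, a receptor of resting microglia, stood at -0.30 ± 0.11 with 4 of 6 toxin libraries below all others. These 2 were named for their small p. Read totals, not scaled for depth, were higher with toxin in Olfml3 (10755 against 7938) and Fcrls (8797 against 6554). They were lower in Gpr34 (1932 against 2309). Alternative and perivascular macrophage genes had a median of -0.23 over 15 members with 3 lower at an unadjusted p under 0.05, among them the lectins Clec10a (-0.73 ± 0.26), Cd209f (-0.89 ± 0.32) and Cd209g (-1.81 ± 0.51). The macrophage median was 0.23 without antibody and -0.952 with it. The 4 members with a fold change above 0 were the scavenger receptor Msr1 (1.15 ± 0.70), the lectin Siglec1 (0.67 ± 0.53), the chemokine Pf4 (0.67 ± 0.67) and the transglutaminase F13a1 (0.31 ± 0.57), named after their values were seen. Cd209g rested on 20 reads with toxin and 63 without. Of 15 astrocyte markers 3 were above 0, with a median of -0.198 and 1 lower at an unadjusted p under 0.05, or 4 lower and 2 higher without aCD40 replicate 3. Slc1a2, the main glutamate transporter of astrocytes, held 1802 to 2445 CPM without toxin and 1248 to 1989 CPM with it, 4 of 6 toxin libraries lying below all others. It was named for its small p and had the lowest fold change of the list (-0.425 ± 0.155). Read totals, not scaled for depth, were higher with toxin in the astrocyte markers Aqp4 (41423 against 31196) and Sox9 (9788 against 7990).

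**Figure D3:**
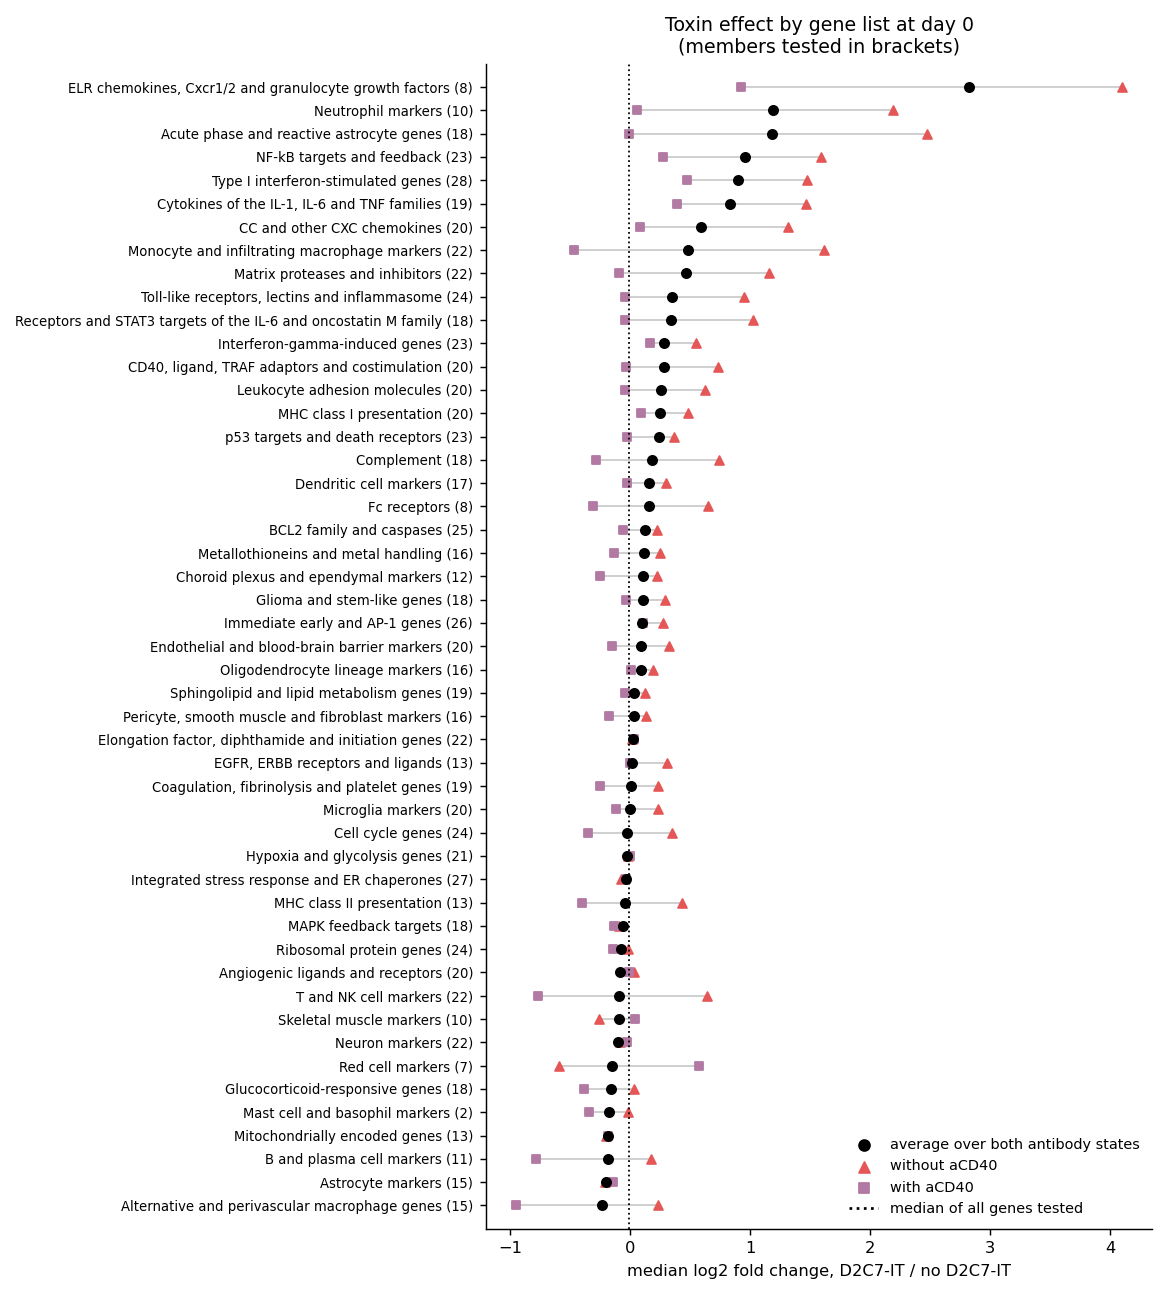
Median log2 fold change of each gene list, D2C7-IT over no D2C7-IT at day 0, averaged over both antibody states (black), without aCD40 (red triangles) and with aCD40 (purple squares), with the median of all genes tested as a dotted line. The ELR chemokine list stands at 2.82, and in the inflammatory lists the value without antibody lies above the value with antibody.

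Genes of the toxin's own target pathway varied little on average. Eef2, the elongation factor that the toxin inactivates, held 1178 to 1423 CPM without toxin and 1078 to 1496 CPM with it, and its log2 fold change was -0.10 ± 0.08 (edgeR adjusted p 0.994). Over the 22 elongation, diphthamide and initiation genes the median was 0.027, and the 4 at an unadjusted p under 0.05 were all initiation factors and all higher. The median was 0.01 without aCD40 replicate 3. These were Eif3a (0.26 ± 0.09), a subunit of the complex that recruits messenger RNA, Eif4a1 (0.19 ± 0.09) and Eif4g1 (0.20 ± 0.08) of the cap-binding complex, and Eif2s1 (0.17 ± 0.08), the regulated subunit that brings initiator tRNA. Ribosomal protein genes had a median of -0.076, with 3 of 24 above 0 and 1 lower at that p.

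Among receptors and ligands of the EGFR family, ligands differed more than receptors. Egfr gave a log2 fold change of -0.05 ± 0.37, its level split between high and low tumours in both arms, and the sign reversed in several alternative fits given in the closing section. Ereg, the EGFR ligand epiregulin (ENSMUSG00000029377, chromosome 5, 91074622 to 91093646), had 0 reads in all 6 libraries without toxin. The toxin arm held 197 reads, of which 190 came from D2C7-IT tumours. Per counted read the ratio of the arms was 60.4 against a floor of 3 reads over the arm without toxin. The 95% lower bound of the ratio from counting error alone was 48.65. D2C7-IT tumours held 1.46 to 1.97 CPM of Ereg and D2C7-IT+aCD40 tumours 0, 0.170 and 0.0224, so the combination replicate 1 matched the arm without toxin. Nrg1, a ligand of Erbb3 and Erbb4 (chromosome 8, 31814551 to 32884029), ranged from 9.96 to 13.2 CPM without toxin and from 13.7 to 27.3 CPM with it, without overlap (log2 fold change 0.63 ± 0.15, edgeR adjusted p 0.468, DESeq2 0.0251). Hbegf, the heparin-binding ligand, held 39.3, 58.9 and 55.0 CPM in D2C7-IT tumours and 8.15, 16.1 and 11.2 CPM in D2C7-IT+aCD40 tumours, against 8.71 to 20.01 CPM without toxin. The median of the 13 tested members of the family was 0.018, and 0.15 without aCD40 replicate 3.

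The stress, death and immediate early lists had medians between -0.032 and 0.24, and single genes in them differed more. The integrated stress response list had a median of -0.032 over 27 genes, with 5 higher and 2 lower at an unadjusted p under 0.05, and -0.07 with 8 higher and 1 lower without D2C7-IT+aCD40 replicate 1. Ppp1r15a, which restores translation after stress, held 11.7 to 15.3 CPM without toxin and 12.1 to 69.3 CPM with it, 5 of 6 toxin libraries lying above all others (log2 fold change 1.37 ± 0.32, edgeR adjusted p 0.487). Atf3, a stress-induced transcription factor, stood at 2.16 ± 0.67, with 4 toxin libraries above the other arm and the combination replicate 1 below it. In the list of p53 targets and death receptors 17 of 23 were above 0, with a median of 0.24 and 4 higher and 1 lower at that p, or 8 higher without either library that stood apart. Gdf15, a cytokine released under cell stress, held 0.0256 to 0.616 CPM without toxin and 0.152 to 8.97 CPM with it, and Fas, the death receptor, 2.11 to 6.06 CPM and 3.11 to 24.2 CPM. Of 26 immediate early genes 7 were higher and 2 lower at that p, with a median of 0.10. That median was -0.008 without aCD40 replicate 3. Maff, a small Maf protein, stood at 2.47 ± 0.58, and Jun, a subunit of AP-1, at 0.74 ± 0.21. Klf4, a zinc finger factor of the same list, was at -0.58 ± 0.11 (edgeR adjusted p 0.379, DESeq2 0.000466), lower without overlap within each antibody state.

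Some genes outside these lists separated the arms without overlap or had a small p. Artn, which encodes the neurotrophic factor artemin (ENSMUSG00000028539, chromosome 4, 117926162 to 117929763), had the smallest adjusted p of all genes, 0.242. It held 0.296 to 0.410 CPM without toxin and 0.683 to 1.17 CPM with it, at a log2 fold change of 1.27 ± 0.17, and its 3 combination libraries, replicate 1 included, lay above all libraries without toxin. Xpo5, the exporter of microRNA precursors, held 46.9 to 53.9 CPM without toxin and 54.2 to 65.3 CPM with it (0.28 ± 0.05, edgeR adjusted p 0.379, DESeq2 0.000116). Mrpl39, a mitochondrial ribosomal protein, held 19.2 to 22.7 CPM and 23.4 to 27.1 CPM in the same order of arms. Efl1, a GTPase that matures the large ribosomal subunit, stood at 0.43 ± 0.09, and Uqcrc2, a core protein of respiratory complex III, at 0.12 ± 0.05 with 124 to 130 CPM without toxin and 138 to 149 CPM with it. Epb42, a red cell membrane protein, was higher in all 6 toxin libraries, but on 91 reads against 7, and the other 6 red cell genes tested stood between -0.25 and 0.03. These genes were named after their values were seen, for small p or for lack of overlap.

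**Figure D4:**
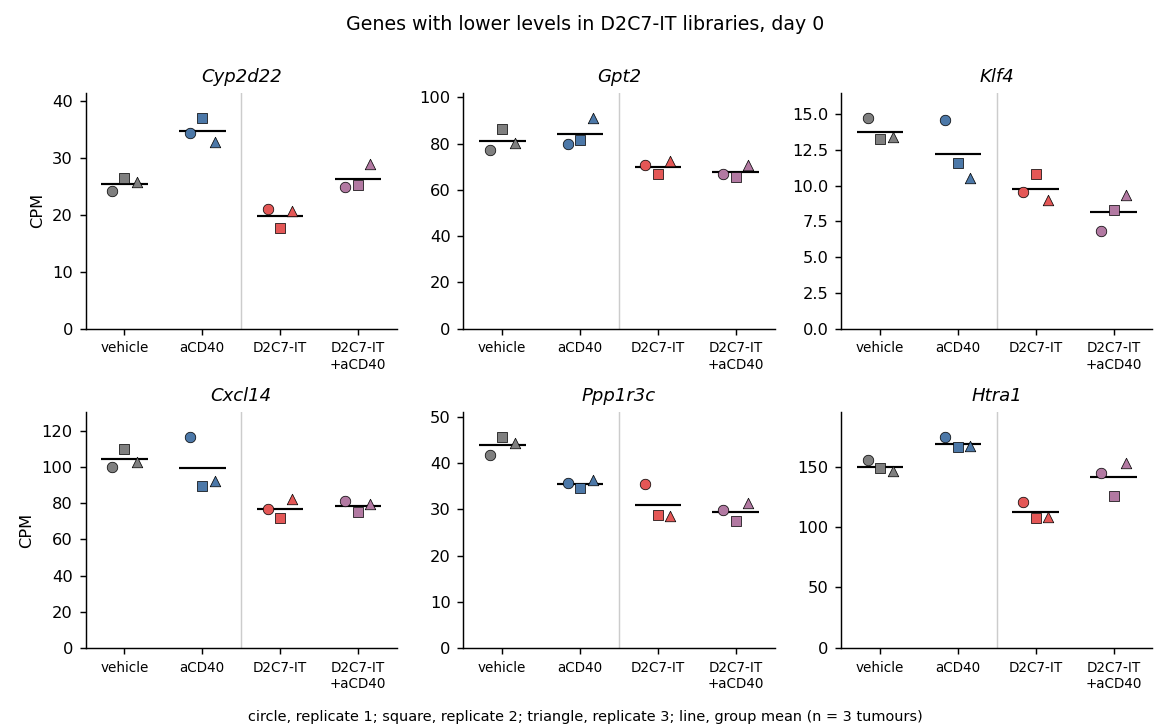
Levels in CPM of 6 genes with lower values in D2C7-IT libraries, by group, with the group mean as a line (n = 3 tumours). Gpt2 and Cxcl14 show no overlap between the 6 libraries with and the 6 without toxin, while Cyp2d22 and Htra1 also differ with the antibody and separate within each antibody state.

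Most of the lower genes named here had log2 fold changes between 0 and -1. Gpt2, a mitochondrial alanine aminotransferase (ENSMUSG00000031700, chromosome 8, 85492576 to 85527560), held 77.4, 86.3 and 80.1 CPM in vehicle, 79.7, 81.7 and 91.0 in aCD40, 70.9, 66.8 and 72.6 in D2C7-IT, and 67.1, 65.4 and 71.0 in D2C7-IT+aCD40 tumours. The arms did not overlap (log2 fold change -0.30 ± 0.05, edgeR adjusted p 0.341, DESeq2 1.31e-06). Cyp2d22, a cytochrome P450 (ENSMUSG00000061740, chromosome 15, 82370527 to 82380260), differed with the antibody as well. It held 24.2, 26.4 and 25.7 CPM in vehicle against 21.1, 17.7 and 20.7 in D2C7-IT tumours, and 34.3, 36.9 and 32.7 in aCD40 against 24.8, 25.2 and 28.9 in D2C7-IT+aCD40 tumours. Within both states the toxin tumours were lower without overlap, at -0.42 ± 0.07 with an adjusted p of 0.326 in edgeR and 8.69e-06 in DESeq2. The other lower genes included several expressed in astrocytes: Htra1, a secreted serine protease (-0.38 ± 0.07), Ppp1r3c, a glycogen-targeting phosphatase subunit (-0.43 ± 0.08), Prodh, proline dehydrogenase (-0.44 ± 0.10), and Fam107a, an actin-associated protein (-0.59 ± 0.12). Fzd4 stood at -0.47 ± 0.09, and the Wnt regulators Tcim at -1.68 ± 0.35 and Dkk2 at -1.09 ± 0.25, these 3 without overlap between the arms.

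Genes induced by glucocorticoids, steroid hormones that dampen inflammation, contributed to the lower side. Of 18 in the list 7 were lower and 2 higher at an unadjusted p under 0.05, beside 2.26% and 3.68% of all genes, and the median was -0.162. By antibody state the median was 0.032 without antibody, with 10 of 18 above 0, and -0.384 with it, with 3 above 0. The number lower was also 7 without D2C7-IT+aCD40 replicate 1 and without aCD40 replicate 3. Sgk1, a hormone-induced kinase, held 90.7 to 156 CPM without toxin (median 111) and 45.5 to 94.8 CPM with it (median 79.3), with 5 of 6 toxin libraries below all others (log2 fold change -0.70 ± 0.17, edgeR adjusted p 0.504, DESeq2 0.025). Its lowest toxin library was D2C7-IT+aCD40 replicate 1, and without it the fold change was -0.58 ± 0.13. Mertk, a receptor for dying cells, stood at -0.44 ± 0.11, Arrdc2, an arrestin-related adaptor, at -0.53 ± 0.13 and Ddit4, an inhibitor of mTOR signalling, at -0.41 ± 0.11. Both higher members, Angptl4 (1.89 ± 0.60) and Lrg1 (1.14 ± 0.36), are also known as vessel or acute phase genes.

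**Figure D5:**
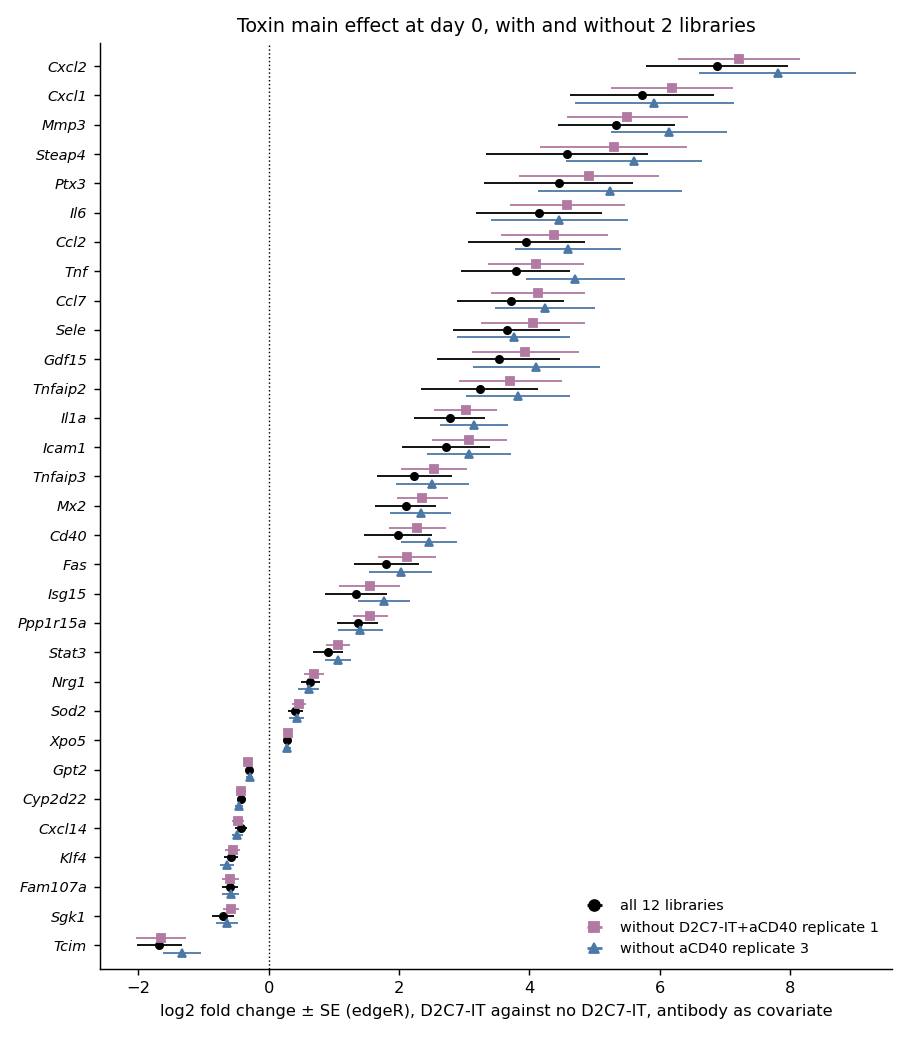
Log2 fold change ± SE of 31 genes for the toxin main effect in edgeR with all 12 libraries (black circles), without D2C7-IT+aCD40 replicate 1 (purple squares) and without aCD40 replicate 3 (blue triangles). The genes plotted keep their direction in these 3 fits, from Cxcl2 at 6.88 to Tcim at -1.68 with all libraries.

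The main effect averages over 2 effects, without and with antibody, that the design allows to be read apart. Without antibody, D2C7-IT against vehicle, edgeR called 10 genes, all higher (0.0482% of genes tested), with 1845 genes at an unadjusted p under 0.05 (8.9%), 1305 higher (6.29%) and 540 lower (2.6%). The 10 were Mmp3, Ror2, Gm10309, Creb3l1, Ifitm1, Lrg1, Selp, Angptl4, Tmem252 and Vwf, named because they were called. Their number was 0 without vehicle replicate 2 or 3, 1 without D2C7-IT replicate 1 or 2, and 4 without vehicle replicate 1. With antibody, D2C7-IT+aCD40 against aCD40, edgeR called 0 genes and DESeq2 called 2, with 339 genes at an unadjusted p under 0.05 (1.63%), 127 higher (0.612%) and 212 lower (1.02%). The test of the difference between these effects called 0 genes in edgeR, with a smallest adjusted p of 0.155, and DESeq2 called 36. At an unadjusted p under 0.05 stood 763 genes (3.68%), of which 579 had a lower value with antibody (2.79%) and 184 a higher one (0.887%). Without D2C7-IT+aCD40 replicate 2, edgeR called 10 genes for the difference, all lower with antibody. Lrg1, a secreted glycoprotein of vessels and neutrophils, held 15.3 to 22.4 CPM in D2C7-IT tumours against 3.64 to 4.09 in vehicle, but 7.35 to 9.33 in D2C7-IT+aCD40 against 6.53 to 8.52 in aCD40 tumours. Its log2 effect was 2.21 ± 0.19 without antibody and 0.08 ± 0.18 with it, and the difference, -2.12 ± 0.26, had the adjusted p of 0.155. Vwf, the von Willebrand factor of endothelium, stood at 1.55 ± 0.18 without antibody and -0.32 ± 0.18 with it, and Angptl4, a lipase inhibitor, at 3.52 ± 0.38 and 0.30 ± 0.35.

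Several inflammatory lists had a higher median without antibody than with it, a difference that was not tested for the lists. The NF-kB median was 1.59 without antibody and 0.27 with it, the cytokine median 1.46 and 0.39, the acute phase median 2.475 and -0.007, and the monocyte median 1.61 and -0.47. In the combination group NF-kB targets averaged 2.96, 4.57 and 3.22 log2 CPM in replicates 1 to 3, against 2.99, 2.88 and 3.86 in aCD40 tumours, so replicate 2 alone of the combination tumours lay above all aCD40 tumours. In D2C7-IT tumours the same mean was 4.44, 5.02 and 4.79. The acute phase list gave 2.88, 4.81 and 3.38 in the combination and 5.31, 5.56 and 5.55 in D2C7-IT tumours. In Artn, Gpt2, Cxcl14 and Xpo5 all 3 combination tumours lay on the same side of every library without toxin as the D2C7-IT tumours did. They are genes whose arms did not overlap, so this order follows from that property and sets no contrast. The inflammatory genes Cxcl1, Cxcl2, Mmp3 and Sele share it.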

How the data were processed

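The authors deposited counts as whole numbers of reads per Ensembl gene, not normalized, in 6 tables of 49315 genes, and 12 of their 36 columns repeat another with 0 that differ. Per the submitters' processing notes, the tools were STAR 2.5.2b, featureCounts from the package Subread 1.5.2, Trimmomatic 0.36 and bcl2fastq 2.17, and the build was GRCm38. No source used here gives the strand setting or annotation release, and the labels' kit does not mark strand, so overlapping genes on opposite strands and near-identical gene copies (H2, Ifit, Oas, globin and mitochondrial genes) are uncertain. GENCODE M21 named 49056 identifiers and gave gene positions.

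Columns were joined to tumours by number. No library repeated another, since replicate pairs differed by a chi-square of 43.5 or more per degree of freedom. The fit used edgeR 4.0.16 under R 4.3.3. Genes were filtered by filterByExpr, scaled by TMM and fitted over the 12 day 0 libraries with antibody and toxin terms (robust quasi-likelihood test, biological coefficient of variation 0.309). A fit of 4 group means gave the toxin effect without and with antibody and their difference. P-values were adjusted by Benjamini-Hochberg over all genes, and a gene was called under 0.05. CPM were not TMM-scaled. Alternatives used DESeq2 1.42.0, limma 3.58.1 voom, other filters and scalings, all 24 libraries, a replicate block, and each tumour left out. Scripts were tested on simulated data.

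Lists were described by counts and medians over the members that passed the filter. Members near 0 without toxin, such as Cxcl2, Csf3, Il6, Mmp3 and Ereg, passed it only through toxin libraries. The filter thus favoured a higher fold change among such members. The rule for named genes took up to 12 called genes per direction, of which there were 0, up to 4 members of smallest p per list, Egfr, Eef2, Cd40, and up to 5 genes of smallest p in the difference. Other genes, of small p, without overlap, or called without antibody, were named after their values were seen. The members and lists were chosen with earlier results of these data known.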

Additional observations from a re-analysis of the deposited data

Results flagged for a closer look

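In the 6 libraries of an arm, the highest or lowest sample was marked when its gap to the next, as a share of the range, exceeded Dixon's critical value ( on log2(CPM + 0.05) for genes and mean log2 CPM for lists). Chance marks about 1 in 20 groups, and 19 of 336 arms were marked, 13 of them at D2C7-IT+aCD40 replicate 1. That tumour was the lowest of the toxin arm in Irf9 (30.33 CPM), Ifit2 (20.71 CPM), Ifit3b (17.44 CPM), Ifit1 (15.72 CPM), Sgk1 (45.54 CPM), Gpr84 (4.126 CPM), the oligodendrocyte factor Sox10 (28.86 CPM), the signalling regulator Rgs16 (8.784 CPM) and the endothelial cadherin Cdh5 (20.28 CPM). It was also lowest in the angiogenic (2.974 log2 CPM), type I interferon (3.777), MHC class II (2.982) and complement (3.542) lists.

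Among tumours without toxin, aCD40 replicate 3 was highest in Cd40 (5.019 CPM) and in the MHC class II list (5.275 log2 CPM) and lowest in the neuronal splicing factor Rbfox3 (296.2 CPM). The pericyte and fibroblast list was lowest in aCD40 replicate 2 (3.780 log2 CPM), Gpr17 of oligodendrocyte precursors was highest in vehicle replicate 1 (110.7 CPM), and Dkk2 was lowest of the toxin arm in D2C7-IT+aCD40 replicate 2 (0.509 CPM).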

How the results depend on the processing

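Genes called for the main effect numbered 0 under no antibody term, other scalings, other filters, voom and the replicate block, 7 with all 24 libraries (Il1a, Artn, Steap4, Cxcl1, Cxcl2, Mmp3 and Angptl4), 2 as an average of group means (Mmp3 and Lrg1), and 103 by DESeq2 (78 higher, 25 lower). Leaving out 1 tumour gave 0 to 1, the 1 being Rgs16 (adjusted p 0.00455) without D2C7-IT+aCD40 replicate 1. Genes at an unadjusted p under 0.05 numbered 779 with all 24 libraries, and 869 to 2291 with 1 tumour left out.

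Without antibody, calls numbered 18 with all libraries, 367 by DESeq2 (321 higher, 46 lower), 87 with only the groups compared (86 higher, 1 lower), 4 with the replicate block, and 0 to 7 with 1 tumour left out, 0 without vehicle replicate 2 or 3 and 1 without D2C7-IT replicate 1 or 2. At an unadjusted p under 0.05 stood 1007 genes with all libraries and 1136 to 2467 with 1 left out. With antibody, DESeq2 called 2 (1 higher, 1 lower), and the unadjusted count was 197 with all libraries, 197 with a filter of 1 CPM in 3 libraries, 163 with only the groups compared and 388 to 703 with 1 left out. For the difference, DESeq2 called 36 (1 higher, 35 lower), 0 to 10 genes were called with 1 left out, 10 without D2C7-IT+aCD40 replicate 2, and the unadjusted count was 360 with all libraries and 467 to 1404 with 1 left out. The causes were not tested.

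Of 2601 values for 119 named genes, 2523 kept their direction and their side of the threshold, 69 passed it, and 9 reversed in 2 genes. Egfr was 0.032 without the antibody term, 0.092 by voom, 0.188 without vehicle replicate 1, 0.307 without aCD40 replicate 3, and 0.036 and 0.051 without D2C7-IT+aCD40 replicates 1 and 3, and ranged from -0.232 to 0.307 with 1 tumour left out. Ecm1 was -0.032, -0.03 and -0.001 without vehicle replicate 2, vehicle replicate 3 and D2C7-IT replicate 2, up to 0.221 with another tumour left out. Of 18 pairs with the same replicate number 5 deviated together at r over 0.1, so the numbers were not taken as pairs. Genes under about 0.1 CPM rest on single reads.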
